A study of Taeniopygia guttata with 2 samples.

Results

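KRT18, KRT19, TNC and RIPK4 are 4 of the 20511 genes counted in single gonadal cells of zebra finch embryos, and they were chosen as genes of the gonadal epithelium with earlier results of these data known. Their identifiers are ENSTGUG00000021502 for KRT18, ENSTGUG00000002393 for KRT19, ENSTGUG00000003200 for TNC and ENSTGUG00000005420 for RIPK4. Gonads were taken at HH stage 28, and those of 7 female embryos and those of 7 male embryos were pooled by sex, with 1 library of the 10× Chromium 3′ kit from each pool. No treatment or genetic change is named for either pool. With 1 library per sex, sex and library cannot be told apart. A barcode stands for 1 droplet, which held a cell or free RNA, and a UMI for 1 counted RNA molecule. Barcodes ending in 2 were taken as female and those ending in 1 as male, an assignment that was not read from a label of the files. Under it, in barcodes with at least 2 UMIs of DMRT1, CYP19A1, which encodes the estrogen-forming enzyme aromatase, was at 22.1 CPM in females and 1.09 in males, SOX9, a factor of Sertoli cells, at 52.7 CPM in females and 241 in males, and DMRT1, a gene of the Z chromosome, at 212 CPM in females and 400 in males (UMIs of the gene per 1000000 UMIs).

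Levels were read from the 7593 female and 9461 male barcodes with at least 2000 UMIs, whose medians were 9126 and 9027 UMIs, and 18 barcode sequences occurred in both libraries. No doublets were removed. Barcodes were put in classes by the genes they contained. The EMX2 and LHX9 class needed at least 2 UMIs of both genes, which encode homeobox factors of the early gonad, and held 2062 female and 2211 male barcodes. The PAX2 class, with at least 1 UMI of a factor of early supporting cells and of kidney tubules, held 645 and 817. The DMRT1 class, with at least 2 UMIs of a factor of supporting cells and of germ cells, held 783 and 2636. The DCN class, with at least 2 UMIs of the interstitial proteoglycan decorin, held 1615 and 2150, and the DND1 class, with at least 5 UMIs of a germ cell gene, held 441 and 658. The other 6 classes rested on CYP17A1 (steroidogenic cells), CDH5 (endothelium), CSF1R (macrophages), HBAD (erythrocytes), SOX10 (neural crest) and CHGA (neuroendocrine cells). A barcode could meet several rules, as 1133 female and 1934 male barcodes did, and 2068 and 2035 met none.

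KRT18 and KRT19 encode type I keratins, acidic proteins that pair with a type II keratin to form the intermediate filaments of simple epithelia. TNC encodes tenascin C, a large glycoprotein of the extracellular matrix that is made in many embryonic tissues, often where epithelium and mesenchyme meet. RIPK4 encodes a kinase that takes part, in mice and humans, in the differentiation and barrier of stratified epithelia. The gonad forms from a thickening of the coelomic epithelium, a sheet of cells on the surface of the mesonephros (the embryonic kidney), and cells that leave this sheet contribute to the tissue beneath it.

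Levels are the UMIs of a gene summed over all barcodes of a class and scaled to counts per 1000000 UMIs (CPM) of that class, with 95% exact Poisson intervals that cover counting error only. Since the genes were chosen on these levels, the levels are a description and carry no test. Free RNA, read from barcodes with at most 100 UMIs, contained the 4 genes as well, KRT18 at 124 and 114 CPM, KRT19 at 59.9 and 46.0, TNC at 56.0 and 92.0, and RIPK4 at 26.2 and 24.0 CPM in female and male libraries. Erythrocytes should lack all 4, and in the HBAD class they ranged between 1.66 and 8.82 CPM. The hemoglobin genes HBAD and HBAA together made up 404989 CPM of that class in females and 413161 CPM in males. This lowers the CPM of every other gene there, so these levels are no matched floor for the other classes. After every barcode was thinned to 2000 UMIs, at most 2.08% of HBAD barcodes contained a UMI of any single one of the 4 genes, with medians of 18773.5 and 19026 UMIs before thinning.

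KRT18 was broadly distributed. It stood at 201 CPM (interval 195 to 206) in females and 155 CPM (150 to 160) in males in the EMX2 and LHX9 class, but was higher in the PAX2 class, at 220 CPM (209 to 232) in females and 195 CPM (186 to 205) in males. KRT18 was thus not particular to the EMX2 and LHX9 class and not highest there in either library. The DMRT1 class had 119 and 142 CPM and the CYP17A1 class 109 and 142 CPM. In the male library, the intervals of the EMX2 and LHX9, CYP17A1 and DMRT1 classes overlapped from one to the next. The DMRT1 class included germ cells that also met the DND1 rule. Without these, an alternative added after the levels had been seen, its KRT18 was at 175 CPM in females and 181 CPM in males. The male value was above the 155 CPM of the male EMX2 and LHX9 class, and the female value below the 201 CPM of the female one. The DCN class had 133 and 87.3 CPM. Germ cells of the DND1 class had 11.5 CPM in females and 12.9 CPM in males, and the CDH5 class 15.7 and 14.6 CPM, against 8.82 and 7.83 CPM in the HBAD class, whose intervals the female CDH5 and the DND1 classes overlapped with but the male CDH5 class did not. After thinning, 30.7% of female EMX2 and LHX9 barcodes contained KRT18, against 0.907% of female DND1 barcodes.

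KRT19 was more narrowly distributed than KRT18. It reached 96.3 CPM (92.3 to 100.4) in females and 79.9 CPM (76.4 to 83.5) in males in the EMX2 and LHX9 class. The PAX2 class had 64.3 and 50.3 CPM, the DCN class 55.3 and 33.8, and the DMRT1 class 24.9 and 24.6. In the male library the barcodes of no class, at 82.3 CPM, overlapped the EMX2 and LHX9 class, while in the female library they were lower, at 72.4 CPM. Endothelial CDH5 barcodes contained KRT19 at 30.5 and 22.8 CPM, although their KRT18 was at only 15.7 and 14.6 CPM. The CYP17A1 class showed the opposite, with KRT18 above 100 CPM and KRT19 at 13.8 CPM in females and 12.0 CPM in males.

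TNC was highest in the EMX2 and LHX9 class in both libraries, at 138 CPM (134 to 143) in females and 190 CPM (184 to 195) in males. The DCN class followed at 100.4 and 101.7 CPM, with the male barcodes of no class between them at 131 CPM. In the PAX2 class TNC was at 57.1 and 49.7 CPM, and in the DMRT1 class at 16.9 and 34.1. SOX10 barcodes of the neural crest had 22.9 CPM (13.3 to 36.6) and 34.3 CPM (20.3 to 54.2), from only 43 female and 35 male barcodes. Germ cells and erythrocytes had at most 8.40 CPM.

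RIPK4 had the largest share of its UMIs in the EMX2 and LHX9 class among the 4 genes, but not the largest excess over every other class. It stood at 81.1 CPM (77.4 to 84.9) in females and 57.2 CPM (54.2 to 60.2) in males in the EMX2 and LHX9 class, and at 46.5 and 26.4 CPM in the DCN class. Every other class defined by a gene had at most 16.7 CPM, the PAX2 class 14.7 and 13.4 CPM and the DMRT1 class 10.2 and 11.7 CPM, while barcodes of no class had 35.9 and 31.7 CPM. In CSF1R and SOX10 barcodes at most 1 UMI of RIPK4 was seen per library. The EMX2 and LHX9 class held 65.4% of all RIPK4 UMIs in females and 61.2% in males, with 29.2% and 25.7% of all UMIs. Its share was 59.2% and 56.3% for TNC, 50.9% and 46.1% for KRT19, and 41.6% and 34.1% for KRT18. As mean log2 differences of the 2 libraries with 5 CPM added, this class exceeded the PAX2 class by 1.94 for RIPK4 and 1.52 for TNC. Over the DMRT1 class the differences were 2.20 for RIPK4 and 2.51 for TNC, and over the DND1 class 2.56 and 3.74.

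**Figure D1:**
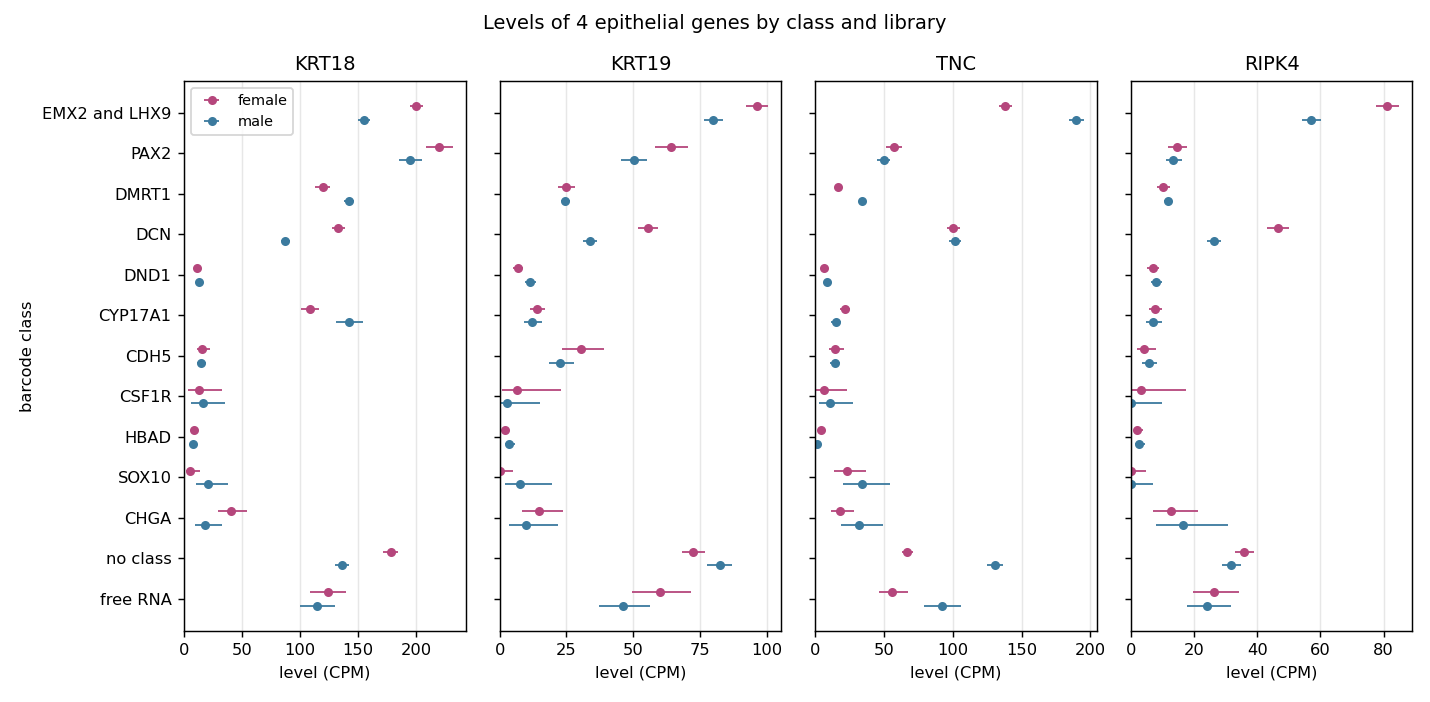
Level in CPM (horizontal axes, each from 0) of KRT18, KRT19, TNC and RIPK4 in each class of barcodes (rows), with female above male points and 95% exact Poisson intervals as bars. TNC and RIPK4 are highest in the EMX2 and LHX9 class in both libraries, KRT18 is highest in the PAX2 class, and the DND1 and HBAD classes stay under 13 CPM for all 4 genes.

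The DCN class included barcodes that also met the EMX2 and LHX9 rule, 30.4% of its female and 24.9% of its male barcodes. In the 491 female and 536 male barcodes of both classes, RIPK4 was at 84.4 and 57.9 CPM, within the intervals of the whole EMX2 and LHX9 class. In DCN barcodes without EMX2 and LHX9 it was at 25.5 and 12.7 CPM. TNC was at 151 and 173 CPM in the barcodes of both classes, against 72.8 and 70.7 CPM in DCN barcodes without EMX2 and LHX9. KRT18 was at 190 and 141 CPM against 102 and 64.2 CPM, and KRT19 at 77.9 and 56.3 CPM against 42.9 and 24.1 CPM. Among DCN barcodes, all 4 genes were higher where EMX2 and LHX9 were seen. Against PAX2 barcodes without EMX2 and LHX9, which held KRT18 at 228 and 199.8 CPM, the EMX2 and LHX9 class was lower for KRT18, with log2 differences of −0.18 in females and −0.36 in males. On the log2 scale with 5 CPM added, the EMX2 and LHX9 class exceeded the whole DCN class by 0.68 for KRT18, 0.94 for KRT19, 0.65 for TNC and 0.86 for RIPK4 (means of the 2 libraries, SD 0.16, 0.27, 0.30 and 0.17). Among barcodes that met 1 rule only, the same differences were 1.22, 1.55, 1.18 and 1.69.

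The levels also followed the amount of EMX2. Barcodes of every class and of no class were thinned to 5000 UMIs and sorted by their EMX2 UMIs. RIPK4 was at 13.3, 54.1, 81.7 and 90.5 CPM in female barcodes with 0, 1, 2 and 3 or more EMX2 UMIs, and at 10.2, 34.5, 53.9 and 67.3 CPM in male barcodes. TNC was at 29.5, 112, 129 and 168 CPM in females and 39.1, 121, 180 and 261 CPM in males. Both genes were higher at each step in each library, with overlapping intervals between 2 and 3 or more UMIs for RIPK4 in both libraries and between 1 and 2 for female TNC. KRT19 differed mainly between 0 and 1 UMI, with 36.5 CPM at 0, 81.5 at 1 and 93.4 at 3 or more in females, and 29.6, 71.5 and 76.9 in males. KRT18 had the flattest course relative to its level, with 123 CPM at 0 and 220 CPM at 3 or more EMX2 UMIs in females and 111 and 183 CPM in males. Sorted by LHX9 in the same way, female RIPK4 and TNC were not higher at each step. With 2 and with 3 or more LHX9 UMIs, RIPK4 was at 91.7 and 80.6 CPM in females and 51.2 and 55.4 CPM in males. TNC was at 141 and 132 CPM in females and 185 and 193 CPM in males, with overlapping intervals for both genes. Since EMX2 and LHX9 took part in the choice of the genes, this is a description.

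**Figure D2:**
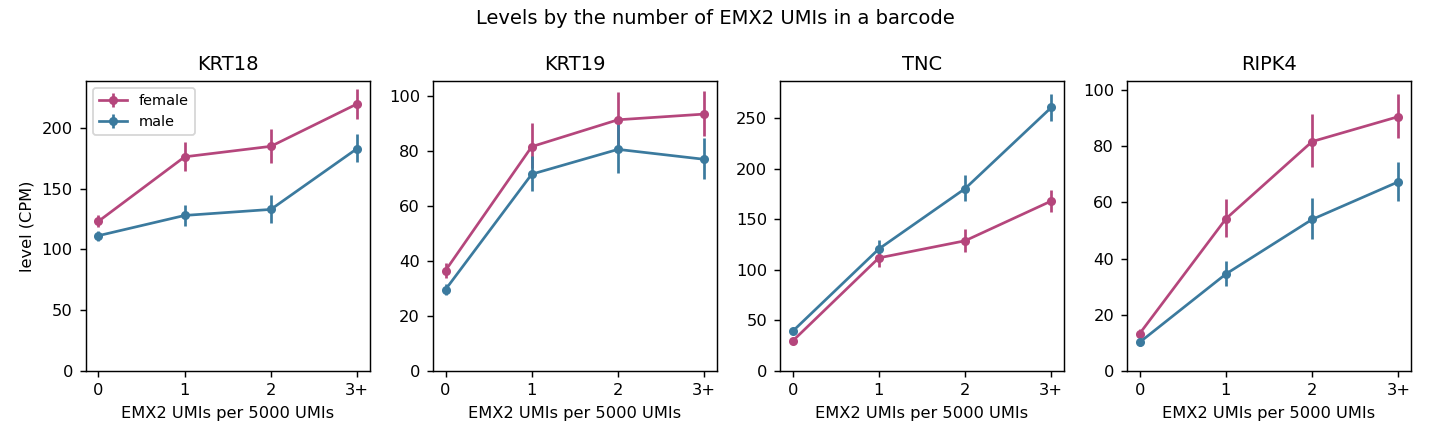
Level in CPM (vertical axes, from 0) against the number of EMX2 UMIs in barcodes thinned to 5000 UMIs, with 1 line per library and 95% exact Poisson intervals as bars. RIPK4 and TNC are higher at each step in both libraries, some steps with overlapping intervals, while KRT19 stays within 15 CPM between 1 and 3 or more EMX2 UMIs.

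Between the sexes, 3 of the 4 genes were higher in the female and TNC was higher in the male EMX2 and LHX9 class. The log2 ratio of female over male was 0.36 for KRT18 (counting interval 0.30 to 0.42), 0.25 for KRT19 (0.17 to 0.33), −0.44 for TNC (−0.50 to −0.38) and 0.47 for RIPK4 (0.38 to 0.56). None passed 1.5-fold, a size that 1.37% of 7007 genes exceeded as higher in females and 4.38% as higher in males. In the DCN class the ratios were 0.58 for KRT18, 0.64 for KRT19, −0.02 for TNC and 0.72 for RIPK4. KRT19 and RIPK4 passed 1.5-fold there, as did 1.41% of 7097 genes that were higher in females, while 4% were higher in males. Without the barcodes that also had EMX2 and LHX9, KRT18 passed as well, and the ratios were 0.62, 0.72, 0.04 and 0.78. In the PAX2 class all 4 ratios lay between 0.10 and 0.33, where 1.64% of 7186 genes passed as higher and 5.58% as lower in females.

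In the DMRT1 class TNC was at 16.9 CPM in females, against 34.1 CPM in males, with a log2 ratio of −0.84, and 6.17% of 7506 genes passed 1.5-fold as lower and 4.96% as higher in females. KRT18 was also lower in females there, with a log2 ratio of −0.24 (−0.32 to −0.16). DMRT1 marks germ cells too, and 20.9% of female DMRT1 barcodes also met the DND1 rule, against 14.0% of male ones. Without these, an alternative added after the levels had been seen, the ratio of KRT18 was −0.05 (−0.14 to 0.03) and that of TNC −0.77. Barcodes were also thinned as for EMX2 and sorted by their DMRT1 UMIs. With 1 DMRT1 UMI, TNC was at 30.2 CPM in females and 86.1 CPM in males, and with 2 at 21.0 and 36.4 CPM. With 3 or more it was at 13.8 CPM (5.06 to 30.0) in 87 female and 12.1 CPM (9.18 to 15.7) in 941 male barcodes. TNC was thus not lower in females there. Of DMRT1 barcodes without DND1, 6.30% of female and 9.26% of male ones also met the EMX2 and LHX9 rule. Their part was not tested. With 1 library per sex none of the female over male ratios can be set against a spread between replicates.

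**Figure D3:**
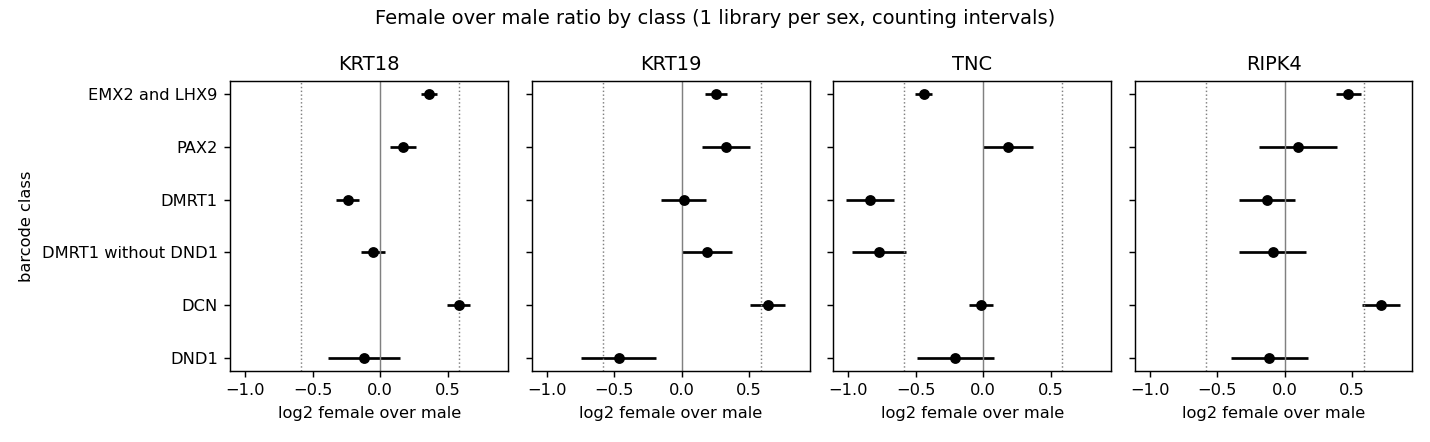
Log2 ratio of female over male level (horizontal axes, 5 CPM added) of the 4 genes in each class of the rule and in the DMRT1 class without DND1 barcodes, with counting intervals as bars and dotted lines at 1.5-fold. KRT18, KRT19 and RIPK4 lie right of 0 in the EMX2 and LHX9 and DCN classes, and TNC lies left of 0 in the EMX2 and LHX9 and DMRT1 classes.

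Dividing barcodes of the EMX2 and LHX9 class alone contained less KRT18, TNC and RIPK4 in both libraries. Barcodes of the EMX2 and LHX9 class alone were called dividing with at least 1 UMI each of CDK1 and UBE2C, genes of mitosis, which held for 254 of 1451 female (17.5%) and 313 of 1440 male barcodes (21.7%). TNC was at 81.3 CPM in dividing and 157 CPM in other female barcodes, and at 140 CPM in dividing and 233 CPM in other male barcodes. RIPK4 was at 51.7 against 95.4 CPM in females and 39.3 against 67.0 CPM in males. KRT18 was at 152 against 230 CPM in females and 109 against 182 CPM in males. The difference was smallest for KRT19, with 86.9 against 111 CPM in females and 82.9 against 93.1 CPM in males, where the male intervals overlapped. Dividing barcodes were deeper, with medians of 13403.5 and 12120 UMIs, against 9327 and 9182 UMIs in the others, and the part of depth was not tested.

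**Figure D4:**
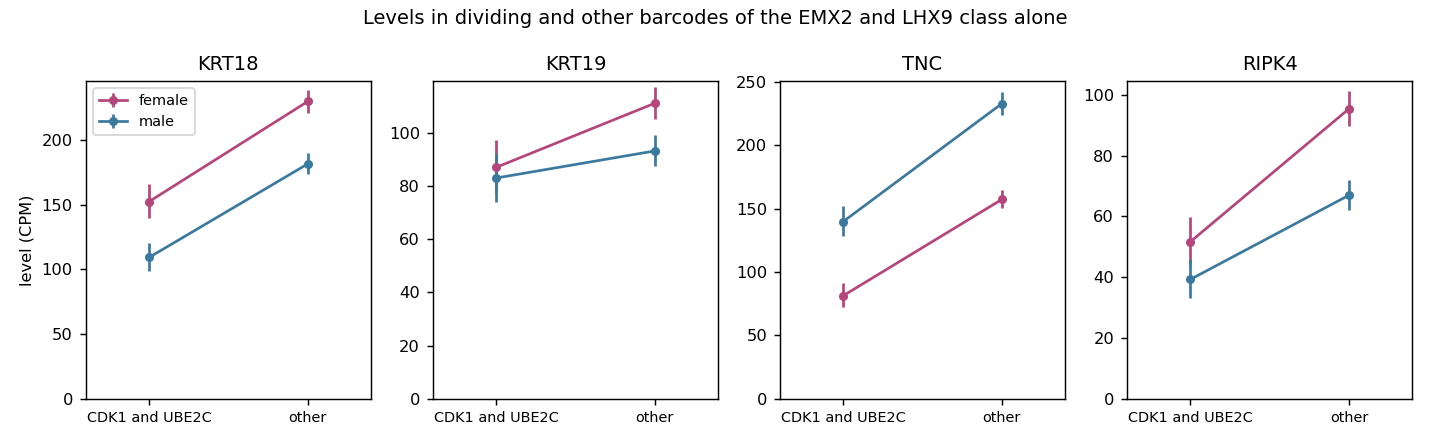
Level in CPM (vertical axes, from 0) in barcodes of the EMX2 and LHX9 class alone that contained CDK1 and UBE2C (left) and in the others (right), with 1 line per library and 95% exact Poisson intervals. TNC, RIPK4 and KRT18 are lower in dividing barcodes of both libraries without overlap, and for male KRT19 the intervals overlap.

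From barcode to barcode within the EMX2 and LHX9 class alone, the 4 genes were spread unevenly and only loosely together. After thinning to 5000 UMIs, 9.26% of 1426 female and 14.7% of 1407 male barcodes held 3 or more TNC UMIs, while 64.9% and 53.0% held none. The variance of TNC was 2.74 and 2.61 times its mean, against 1.28 to 1.65 for the other 3 genes. All 4 genes were seen in 2.66% of female and 2.13% of male barcodes, where independent detection would give 2.15% and 1.58%. TNC and RIPK4 were seen together 1.21 and 1.15 times as often as independent detection would give, and KRT18 and TNC 1.07 and 1.10 times. KRT19 and RIPK4 were together less often, at 0.85 and 0.97 times. Pearson r between log-transformed UMI counts of any pair was between −0.05 and 0.12 across barcodes, which are not replicates. Correlations this weak in sparse counts are no finding.

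To ask whether the other 3 genes differed with TNC, barcodes of the EMX2 and LHX9 class alone were thinned to 2000 UMIs and split into TNC-positive (306 female and 409 male) and TNC-negative ones (1145 and 1031), and the sums were compared with edgeR over the 2 libraries. KRT18 was at 230 CPM in TNC-positive and 203 CPM in TNC-negative female barcodes, and at 202 against 146 CPM in male ones. KRT19 was at 134 against 90.4 CPM in females and 97.8 against 95.1 CPM in males. RIPK4 was at 93.1 against 91.3 CPM in females and 75.8 against 56.3 CPM in males. The log2 differences were 0.28 ± 0.19, 0.29 ± 0.18 and 0.16 ± 0.28 (SE), and none passed the test (adjusted p = 1.0 each in edgeR's quasi-likelihood test). With the library as a block, since both sides of the split came from the same pool of embryos, the adjusted p was 0.097 for KRT18, 0.42 for KRT19 and 0.73 for RIPK4. Split by KRT19 in the same way, RIPK4 had a log2 difference of −0.48 ± 0.35, at 81.1 against 93.6 CPM in females and 35.1 against 67.2 CPM in males, and did not pass either (adjusted p = 1.0, and 0.49 with the block).

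**Figure D5:**
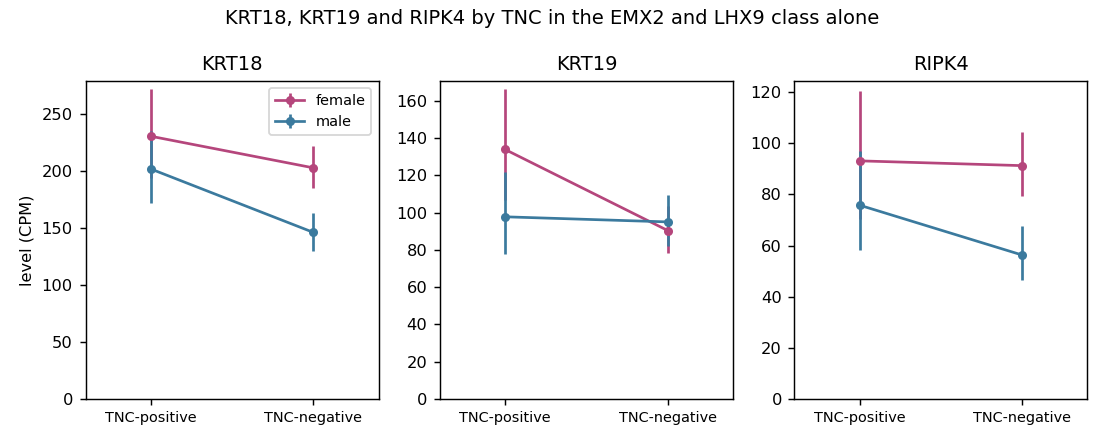
Level in CPM (vertical axes, from 0) of KRT18, KRT19 and RIPK4 in TNC-positive (left) and TNC-negative (right) barcodes of the EMX2 and LHX9 class alone, thinned to 2000 UMIs, with 1 line per library and 95% exact Poisson intervals. The lines tilt most toward the TNC-positive side for male KRT18 (202 against 146 CPM) and female KRT19 (134 against 90.4 CPM). They are nearly flat for female RIPK4 (93.1 against 91.3 CPM) and male KRT19 (97.8 against 95.1 CPM). None of the 3 genes passed the test.

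Among all other genes, none of 9383 was called between TNC-positive and TNC-negative barcodes without the block (0% in each direction), with 178 higher and 195 lower at an unadjusted p under 0.05, and DESeq2 also called 0. With the library as a block, which leaves 1 residual degree of freedom, edgeR called 75 genes as higher (0.799%) and 99 as lower (1.06%). The p-values with the block rest on sums of barcodes from the same pools, with the spread shared over genes. They do not measure a spread between embryos, however small they are. The largest differences among genes with a symbol that were higher were those of KCNIP1, KCNA1, MFSD11, LIPG and PID1, with log2 differences between 1.02 and 1.15. KCNIP1, a protein that binds potassium channels, was at 29.4 against 14.0 CPM in females and 19.6 against 7.76 CPM in males (adjusted p = 0.049 in edgeR with the block). LIPG, an endothelial lipase, was at 75.2 against 27.9 CPM in females but 13.4 against 12.6 CPM in males. The largest differences among genes with a symbol that were lower were those of BTG1, SHISA3, RUNX2, TLE1 and DEPDC1B. The TNC-positive sums held only 612000 female and 818000 male UMIs, so some of these rest on very few UMIs. BTG1 was at 1.63 against 9.17 CPM in females and 1.22 against 8.73 CPM in males. SHISA3 was at 0 against 9.17 CPM in females, and TLE1 at 2.44 against 13.6 CPM in males. RUNX2, a factor known from bone formation, was at 11.4 against 46.7 CPM in females and 30.6 against 90.7 CPM in males (adjusted p = 4.73e-08 in edgeR with the block).

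Some further genes called with the block were singled out after their values had been seen. ITGA6, an integrin subunit that binds laminin, was at 88.2 against 60.7 CPM in females and 92.9 against 46.6 CPM in males (adjusted p = 0.0030 in edgeR with the block). COL4A4, a collagen IV chain of basement membranes, was at 83.3 against 61.6 CPM and 172 against 88.3 CPM, and IGFBP5, which binds insulin-like growth factors, at 503 against 307 CPM and 570 against 334 CPM. DSP, the desmosome protein that anchors keratin filaments, was at 1575 CPM in TNC-positive and 1178 CPM in TNC-negative female barcodes, and at 1523 against 1250 CPM in male ones (adjusted p = 1.2e-09 in edgeR with the block). TCF21, a factor of mesenchymal and coelomic cells, was at 13.1 against 45.0 CPM in females and 35.5 against 80.5 CPM in males (adjusted p = 2.2e-05), and PTN, a secreted growth factor, at 242 against 409 CPM and 204 against 385 CPM (adjusted p = 2.5e-14). TOP2A, a gene of dividing cells, was lower as well, at 137 against 201 CPM and 178 against 252 CPM, and dividing barcodes made up 14.1% of TNC-positive and 18.4% of TNC-negative female barcodes and 17.1% and 23.6% of male ones. The part of division in these differences was not tested. With KRT19 in the place of TNC, none of 9362 genes was called without the block (0%), with 127 higher and 145 lower at an unadjusted p under 0.05 and 0 in DESeq2, and with the block edgeR called 14 as higher (0.15%) and 11 as lower (0.117%). Of genes with a symbol, the largest differences were those of POLR3B, AMIGO2, ANGPT2, S100A11 and CELF2 among the higher and of TMEM100, NR0B1, COL4A4, CHRNA4 and DMD among the lower genes. NR0B1, a nuclear receptor of the gonad, had the smallest adjusted p of those named, at 83.3 CPM in KRT19-positive and 283 CPM in KRT19-negative female barcodes and at 105 against 202 CPM in male ones (adjusted p = 7.4e-17 in edgeR with the block).

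Genes of the same pathways and markers of the surrounding cell types were compared between barcodes of the EMX2 and LHX9 class alone and of each other class alone with edgeR over the 2 libraries. The library was no block in this fit, although each library gave sums of every class. Its p-values do not measure a spread between embryos. A gene was called at an adjusted p of at most 0.05 and a log2 difference past 1. Over the DCN class, 2.07% of 12931 genes were called as higher and 4.49% as lower. Of 8 tested markers of the coelomic and gonadal surface other than the 4 genes and the genes that define a class, 4 were higher, 1 was lower and 3 were not called, with a median log2 difference of 1.07 against 0.02 over all genes. The factor LHX2 was higher by 3.19 ± 0.36 (SE), LRRN4 by 1.73 ± 0.26, the retinoic acid enzyme ALDH1A2 by 1.24 ± 0.22 and BNC1 by 1.23 ± 0.20 (adjusted p between 0.0019 and 0.011 in edgeR). TCF21 was lower, at −2.75 ± 0.54, and WT1 and GATA4, with 0.77 and 0.62, did not pass both thresholds. Of 6 interstitial markers, a list that shares TCF21, 5 were lower, with LUM at −4.65, POSTN at −3.67, COL3A1 at −1.77 and COL1A2 at −1.60. The collagen gene COL1A1 went the other way, at 0.66 ± 0.17, and was not called. When a barcode of several classes was counted in each of them, so that the sums compared shared barcodes, ALDH1A2, BNC1, TCF21 and POSTN, and among the genes below ESRP1, SDC4, FBLN1, PRKCD and ELF3, no longer passed over the DCN class, nor did DSP and KLF5 over the PAX2 class, all with their direction kept.

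Partners of the keratins behaved less uniformly. The type II partner KRT8 was not matched by symbol, and DSP, PKP2 and PPL, proteins of desmosomes and of the cornified envelope, were the 3 of 6 listed genes found in the table that had enough counts for the test. None was called over the DCN class, with log2 differences of 0.39 for DSP, −0.53 for PKP2 and 1.62 for PPL. Over the PAX2 class, where 2.33% of genes were higher and 3.57% lower, DSP was higher by 1.15 ± 0.17 and the desmosome plaque protein PKP2 lower, at −1.33 ± 0.31 (adjusted p = 0.0073 and 0.040 in edgeR). Over the DMRT1 class, where 5.07% were higher and 4.83% lower, PPL was higher by 2.91 and DSP by 1.49, and PKP2 lower, at −2.0. Of 19 tested genes of cell junctions, 1 was higher and 0 were lower over the DCN class, 0 were higher and 2 lower over the PAX2 class, and 1 was higher and 1 lower over the DMRT1 class. Germ cells stood further apart: over the DND1 class, where 18.7% of all genes were higher and 18.2% lower, DSP, PKP2 and PPL were all 3 higher, and of the 19 junction genes 5 were higher and 7 lower. Over the mean of the 4 other classes, where 5.95% were higher and 3.59% lower, 6 of the 8 surface markers and 2 of the 3 keratin partners were higher and none was lower. Of the 6 interstitial markers, 3 were higher there as well and 0 lower. Of the 8 surface markers, 1 was higher over the PAX2 class, 5 over the DMRT1 class and 7 over the DND1 class, with 0 lower in each. The 1 over the PAX2 class was LHX2, while WT1 was at −0.94 there and not called. The 1 junction gene over the DCN class was the splicing factor ESRP1. Over every barcode of a class, and not only those that met 1 rule as in the fit, it was at 2.93 and 2.03 CPM in the EMX2 and LHX9 class and 1.33 and 1.49 CPM in the DCN class. The tight junction gene CLDN1 and the epithelial factor GRHL2 were lower than in the PAX2 class, at −2.39 and −4.49. GRHL2 was barely detected in either class. Over every barcode of a class it was at 0.131 and 0.122 CPM in the EMX2 and LHX9 class and 1.35 and 2.03 CPM in the PAX2 class.

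Of 20 tested ligands, receptors and matrix partners of tenascins, 1 was higher and 4 were lower over the DCN class, with a median log2 difference of −0.75 against 0.02 over all genes. PTN was higher, by 1.72 ± 0.24 (adjusted p = 0.0043 in edgeR). ITGA8, an integrin subunit whose dimer binds tenascin C, was lower, at −2.42, the matrix protein LTBP1 at −1.80, the syndecan SDC4 at −1.55 and the fibulin FBLN1 at −1.31. Over the DMRT1 class ITGA8 was higher, by 3.79, and its level over every barcode of a class was 7.82 and 7.51 CPM in the EMX2 and LHX9 class, 27.1 and 23.1 CPM in the DCN class and 1.87 and 2.28 CPM in the DMRT1 class. ITGB8, another integrin subunit, was lower than in the PAX2 class, at −2.32, and than in the DMRT1 class, at −1.91. Of 13 tested genes around RIPK4, 2 were higher over the DCN class and 0 lower. These were PRKCD, a protein kinase C, by 1.39 ± 0.26, and ELF3, an epithelial transcription factor, by 1.34 ± 0.32 (adjusted p = 0.014 and 0.037 in edgeR). Over every barcode of a class the levels of ELF3 were low, at 9.48 and 11.1 CPM in the EMX2 and LHX9 class and 5.69 and 6.0 CPM in the DCN class. KLF5, another epithelial factor, was lower than in the PAX2 class, at −1.36.

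Markers of neighbouring cells differed in some lists and not in others. Over the PAX2 class, where 2.33% of all genes were higher and 3.57% lower, 5 of 8 tested markers of mesonephric tubules and ducts were lower and 0 higher. Of 5 supporting markers, 2 were lower and 0 higher there. None of the 3 germ, 3 endothelial or 3 macrophage markers was called. Among the mesonephric markers, GATA3, LHX1, JAG1 and CUBN were lower than in the PAX2 class, with log2 differences between −7.42 and −3.46. Counted over every barcode of a class, the factor GATA3 was at 0.480 CPM in females and 0.650 CPM in males in the EMX2 and LHX9 class, against 14.6 CPM in females and 15.4 CPM in males in the PAX2 class. The Notch ligand JAG1 was at 6.86 CPM in females and 9.22 CPM in males, against 66.5 CPM in females and 54.8 CPM in males. The part of mesonephric cells in the PAX2 comparison was not tested.

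The genes most like each of the 4 were found by the Pearson correlation of log2(CPM + 5) over 22 profiles, those of 11 classes in 2 libraries, among 9985 genes. The profiles share libraries and barcodes, so the values only rank genes. For KRT18 the first were GATA4 (r = 0.98), COL4A5, CACNA1H, SEMA3D and NPNT. For KRT19 they were SEMA3A (0.96), SYT12, ZNF503, WNT16 and GATA6, and for TNC RBPMS (0.93), SLITRK2, KAZALD1, CLEC19A and CRISPLD1. For RIPK4 they were KCNB2 (0.95), RSPO3, LAMA5, RPRM and OSTN. WNT16, a secreted signal, was at 290 and 345 CPM in the EMX2 and LHX9 class and 99.1 and 115 CPM in the DCN class. RSPO3, a secreted enhancer of WNT signalling, was at 111 and 82.2 CPM against 55.4 and 54.3 CPM. Among the 4 genes themselves r was between 0.72 (KRT18 and RIPK4) and 0.85 (KRT19 and RIPK4), so no gene of the set was among the 5 nearest to another.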

How the data were processed

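The authors deposited 1 table of counts, the UMIs that each barcode held of each gene, made with Cell Ranger 5.0.0 per the labels on a zebra finch reference with Ensembl identifiers, with both libraries joined and before cells were called. The total was 98701138 UMIs for females and 124217899 for males, of which 79.4% and 77.1% fell on barcodes with at least 2000 UMIs. Of the genes, 9155 have no symbol, and lists were matched by symbol. The 4 genes, the classes and the gene lists were chosen with earlier results of these data known.

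From the counts, levels were computed as CPM of sums per class and library with 95% exact Poisson intervals, shares with exact binomial intervals, and log2 ratios with 5 CPM added. PCR and capture errors are not covered. Genes with at least 20 CPM in either library entered the count past 1.5-fold. Barcodes were thinned without replacement with fixed seeds (python 3.11.15, numpy 2.4.6, scipy 1.17.1, pandas 2.3.3). Sums per class or split were compared with edgeR 4.0.16 under R 4.3.3 (filterByExpr, TMM, quasi-likelihood test, Benjamini-Hochberg over all genes tested), with classes of barcodes that met 1 rule only and both libraries as replicates. DESeq2 1.42.0, library size alone, no filter on low counts, the library as a block, other minimums and each library left out were alternatives. The tests were run on simulated data first. These were drawn without a difference between the libraries, so they do not show how the tests fare where the libraries differ. The libraries pair the sums because both sides of a contrast come from the same pooled embryos, and the female over male log2 ratios of 2 classes correlated across 4993 genes with r between 0.34 and 0.78, over genes that are not independent replicates. The main fits did not use this pairing, and only the alternative with the library as a block did.

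Named are the 4 genes, genes that define a class, up to 4 called genes per list over the DCN class with the largest changes and list genes that a sentence asks about, the 5 genes most like each of the 4, and the 5 largest changes per direction among called genes of a split. Where a gene was named after its values were seen, the text says so. No genome of the build was used, so no coordinates or sequences are given. Some listed genes are not reported here.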

Additional observations from a re-analysis of the deposited data

Results flagged for a closer look

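KRT18 was higher in the female library in some classes and lower in others, with counting intervals on opposite sides of 0. Its log2 ratio of female over male was 0.36 in the EMX2 and LHX9 class, 0.17 in the PAX2 class and 0.58 in the DCN class, and −0.24 in the DMRT1 class. Without the DMRT1 barcodes that also met the DND1 rule the DMRT1 ratio was −0.05 (−0.14 to 0.03), an interval that held 0. In the CYP17A1 class the ratio was −0.37 (−0.52 to −0.23), and in barcodes of no class 0.38. From few barcodes it was −1.32 (−2.33 to −0.32) in the SOX10 class and 0.95 (0.18 to 1.72) in the CHGA class. The difference between these ratios was not tested, since each class has 1 library per sex. KRT19 had ratios of 0.25 in the EMX2 and LHX9 class, 0.33 in the PAX2 class and 0.64 in the DCN class, and −0.47 in the DND1 class, where its level was 6.84 CPM in females, against 11.4 CPM in males. That difference was not tested either.

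The 4 genes also appeared in barcodes with at least 500 and under 2000 UMIs, which no comparison above used. In 2666 such female barcodes KRT18 was at 139 CPM, KRT19 at 51.9, TNC at 97.5 and RIPK4 at 33.3 CPM. In 5044 male ones KRT18 was at 93.5 CPM, KRT19 at 43.5, TNC at 114 and RIPK4 at 18.8 CPM.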

How the results depend on the processing

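Intervals cover counting error only, and with 1 library per sex no alternative tests a sex difference. Ratios of female over male in the EMX2 and LHX9 class kept their direction under all alternatives, except that of KRT19 when classes were formed after thinning to 2000 UMIs, where only 155 barcodes per library remained: the ratios were then 0.020 for KRT18, −0.17 for KRT19, −1.01 for TNC and 0.18 for RIPK4. The excess over the DCN class was then 1.60 for KRT18, 1.49 for KRT19, 1.48 for TNC and 2.01 for RIPK4. With barcodes that met 1 class only it was 1.22, 1.55, 1.18 and 1.69, and the female over male ratio of TNC was −0.56. Without the female or the male library the excess was between 0.57 and 0.80 for KRT18, 0.75 and 1.13 for KRT19, 0.44 and 0.87 for TNC, and 0.74 and 0.99 for RIPK4. With every barcode in each class it met, where the sums of 2 classes shared barcodes, 68 genes were higher and 296 lower over the DCN class (268 and 580 otherwise), 866 were higher and 1308 lower over the DMRT1 class (656 and 624 otherwise), and 893 were higher and 893 lower over the mean of the 4 classes (769 and 464 otherwise). KLF5 and PKP1, called higher over the DMRT1 class, were then at −0.37 and −0.42, and the share of higher genes among those called over the DMRT1 class was 39.8% (51.2% otherwise), 18.7% over the DCN class (31.6%) and 50% over the mean of the 4 classes (62.4%). Scaling by library size alone moved the median log2 difference of all genes to 0.10 over the DMRT1 class and −0.15 over the DND1 class. With the library as a replicate block 415 genes were higher over the DCN class. In the split by TNC the block gave 75 higher and 99 lower genes and no filter on low counts gave 4 and 5, and in the split by KRT19 the block gave 14 and 11. Other alternatives left the log2 differences of the 4 genes in the splits on the same side of 0 and of the threshold.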
